A study of Sus scrofa with 9 samples.

Results

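Molecular chaperones and protein folding enzymes were followed in the developing molars of the Wuzhishan miniature pig. Members were taken by gene symbol and not by any measured value: all probe sets whose only symbol begins with HSPA, HSPB, HSPD, HSPE, HSPH, HSP90, DNAJ or PDIA, or with CCT and a digit from 2 to 8. This gave 87 probe sets for 53 genes, of 6765 genes with 1 symbol on the array. A gene is described through whichever of its probe sets was brightest (mean log2 signal over all arrays), and 21 of the 53 genes had several probe sets to choose from. By general knowledge of where the proteins work, 33 members were counted as cytosolic, 9 as proteins of the endoplasmic reticulum (ER) and 6 as mitochondrial. The cytosolic group takes in proteins of the nucleus, DNAJC8, DNAJC9 and DNAJC17 among them. For 5 the place is another one or unsettled. They are HSPB11, DNAJC5, DNAJC14, DNAJB14 and HSPA12A.

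The RNA came from lower jaw germs of the additional molars, the permanent teeth that have no milk tooth before them, taken with their dental lamina. Embryonic days 50, 60 and 70 (E50, E60 and E70) were sampled, with 3 arrays each and 9 in all, from untreated animals of 1 breed with no genotype or treatment to compare. At E50 the germ of the first molar is a cap and the second has not begun, at E60 the first is a bell and the second is beginning, and at E70 the first is a late bell. Germs of a stage were pooled, and by their labels the 3 arrays are biological replicates. The sources do not say whether each stands for a litter of its own, and p-values measure only the spread between these arrays.

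Chaperones bind unfolded stretches of other proteins and keep them from clumping while they fold. In the cytosol the HSP70 proteins (HSPA) work in cycles of ATP, are loaded by J-domain partners (DNAJ) and hand clients on to HSP90 or to the ring-shaped CCT complex, while small heat shock proteins (HSPB) hold damaged proteins without using ATP. The ER and the mitochondrion each have their own set, and in the ER the protein disulfide isomerases (PDIA) also form and rearrange the disulfide bonds of secreted proteins such as the matrix proteins of teeth and bone.

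The deposited values are MAS 5.0 signals, an intensity per probe set scaled alike on each array, so a signal can be set against that of the same probe set on another array but not against that of another gene. Changes are differences of log2 signal, and a member is said to have risen or fallen only at a limma p-value under 0.05 after Benjamini-Hochberg adjustment over all 23999 tested probe sets. The E50 arrays stood apart. Their signal ratio of 3′ to 5′ probe sets of EF1A was 49.3 to 55.8, where the E60 arrays gave 1.42 to 1.56 and the E70 arrays 1.35 to 1.47, and their correlation with each other (r of log2 signals across probe sets, 0.605 to 0.683) was below that within E60 (0.902 to 0.914) and E70 (0.901 to 0.921). Background was 77.7 to 379 on the E50 arrays, 37.9 to 54.4 on those of E60 and 38.1 to 55.8 on those of E70. Stage and 3′ skew cannot be told apart in any comparison with E50. The later stages also differed in this skew when it was read from GAPDH. Its 3′ to 5′ ratio lay between 4.36 and 6.47 for the E70 arrays, without overlap with the E60 arrays (lowest 6.98, highest 9.24). For the E50 arrays the lowest was 29.7 and the highest 42.2. The part of 3′ skew in the changes between E60 and E70 was not tested. Of the 53 members, 38 (71.7%) lay above background on all 9 arrays, against 33.9% of all probe sets, and HSPB3 was above it on none.

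Between E50 and E60, the cap and the bell stage, 9 members rose and 3 fell. These 12 are 22.6% of the members, beside 18.5% of all tested probe sets called in this step, and the split by direction was 17.0% rising and 5.66% falling against 7.85% and 10.6% of all probe sets. All probe sets hold more dim ones: 33.9% were above background on all 9 arrays, against 71.7% of the members. Shares among probe sets as bright as the members were not computed. Cytosolic members gave 6 of the rises and 1 fall, ER members 3 rises and no fall, and mitochondrial members no rise and 2 falls. On the log2 scale the median change was 0.49 over the cytosolic members, 0.43 over the ER members and -0.48 over the mitochondrial members, where the median of all probe sets was -0.18. All 3 arrays of E60 lay above all 3 of E50 for 20 members and below them for 11, beside 17.5% and 21.7% of all probe sets. The split depends on the scaling: with each array centred on its median, which adds 0.77 to every change in this step, 24 members rose and 1 fell and the mitochondrial median turned to 0.30, and after quantile normalization 9 rose and 1 fell. With 1 array left out, 8 of the 12 calls were lost for at least 1 choice of array, and those of HSPA13, HSP90B1, DNAJB6 and HSPE1 held for each. Fewer cells of a type and less RNA per cell cannot be told apart in such bulk samples.

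Between E60 and E70 no member passed the test, in a step where 0.421% of all probe sets were called (0.0833% rose and 0.338% fell). The estimate of spread is shared by all stages, so that of the E50 arrays enters this step as well. At an unadjusted p under 0.05 there were 3, HSPB11, CCT6A and HSPA2, beside 7.73% of all probe sets. The arrays did not overlap for 22 members, 11 higher at E70 and 11 lower, beside 15.7% and 12.4% of all probe sets. Over the whole interval from E50 to E70, 4 members rose and 3 fell, where 18.8% of all probe sets were called, 8.16% as a rise and 10.6% as a fall. Of these 7 calls, those of HSPA13, HSPE1 and HSPB11 held whichever 1 array was left out. All E70 arrays were above all E50 arrays for 19 members and below them for 8, beside 17.5% and 19.9% of all probe sets. The log2 change from E50 to E60 was below 0 for 17 of the 53 members and 55.2% of all probe sets, and that from E50 to E70 for 20 members and 53.3%. A test across the 3 stages called 9 members, beside 17.7% of all probe sets.

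**Figure D1:**
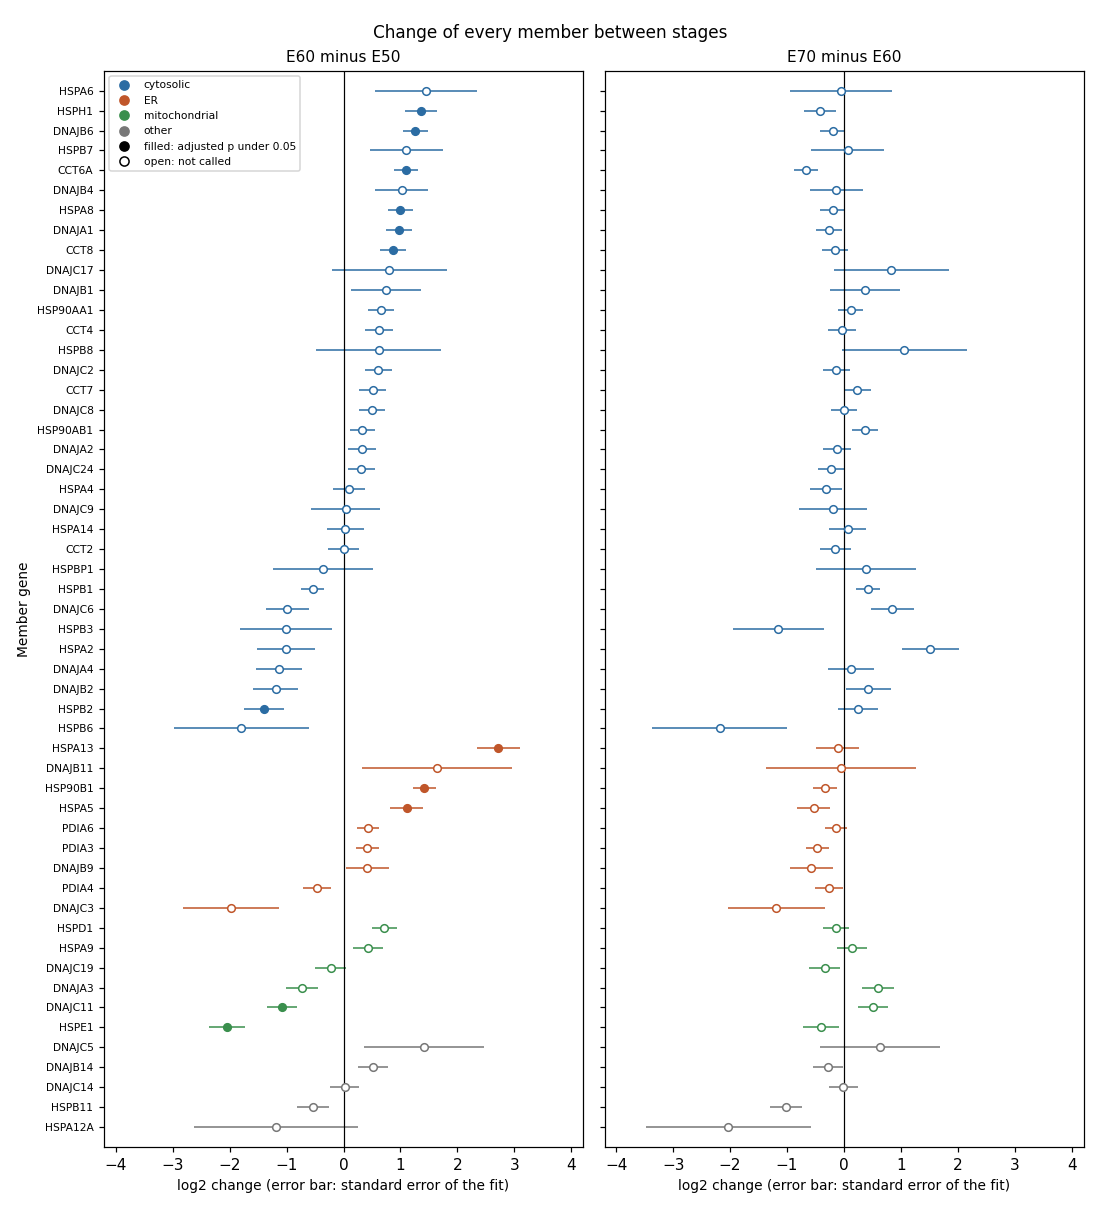
Log2 change of each of the 53 members between E50 and E60 (left) and between E60 and E70 (right), ordered by compartment and by the size of the first change, with the standard error of the limma fit over 9 arrays as bars. The 12 filled points, all on the left, are the members called at an adjusted p under 0.05, and on the right all 9 ER members lie below 0.

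Of the 9 ER members 3 rose between cap and bell, HSP90B1, HSPA13 and HSPA5, and none fell. HSP90B1, also known as GRP94, is the HSP90 of the ER and folds integrins and some secreted proteins. Its signal was 3065, 2794 and 2334 at E50, 7592, 6792 and 7421 at E60 and 5903, 5472 and 5969.7 at E70. The 3 stages did not overlap: E50 was lowest, E60 highest and E70 between them. The rise to E60 was 2.68-fold (log2 change 1.42 ± 0.21 (SE), adjusted p = 0.00601), and E70 was still above E50 (log2 change 1.09 ± 0.21 (SE), adjusted p = 0.0124). HSPA13 (STCH), an HSP70-like protein bound to microsomes, gave 275, 739.5 and 406 at E50, 2859, 2954 and 2764 at E60 and 2067, 2880.3 and 3112 at E70. All 6 later arrays lay above the E50 arrays, while E60 and E70 overlapped. Of the E50 signals, 275 and 406 lay close to the backgrounds of their arrays (248 and 379), and 739.5 lay well above its own (77.7). The log2 change was 2.71 ± 0.38 (SE), adjusted p = 0.00514 to E60, or 6.57-fold, and 2.60 ± 0.38 (SE), adjusted p = 0.00474 to E70.

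HSPA5, the lumenal HSP70 known as BiP, binds nascent chains as they enter the ER and holds the stress sensors of the compartment. Its signal was 6655, 5435 and 3707 at E50, 10019, 11835 and 11408 at E60 and 6499.7, 9437 and 7316 at E70. All E60 arrays stood above both other stages, and the E70 arrays overlapped with those of E50. HSPA5 rose 2.16-fold to E60 (log2 change 1.11 ± 0.29 (SE), adjusted p = 0.0366), a call that is lost without any 1 of the 6 later arrays (adjusted p then 0.0502 to 0.117), and its log2 change from E60 to E70 was -0.53 ± 0.29 (SE), adjusted p = 0.803. PDIA6, a disulfide isomerase that works with HSPA5, was even within stages, at 4955, 4929 and 5019.8 at E50, 6481, 6671 and 6899.5 at E60 and 5809.7, 5901 and 6442 at E70. Its stages did not overlap, with E60 highest, but the log2 change to E60 was 0.43 ± 0.19 (SE), adjusted p = 0.156, and it was not called. PDIA3 (ERp57), which folds glycoproteins together with calnexin and calreticulin, had a log2 change of 0.42 ± 0.20 (SE), adjusted p = 0.194, with all E60 arrays above all E50 arrays.

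The other ER members went without a call to E60. PDIA4 (ERp72) was lower at E60 than at E50 on all arrays, with a log2 change of -0.47 ± 0.25 (SE), adjusted p = 0.23. DNAJB9 and DNAJB11, J proteins that serve HSPA5, had log2 changes of 0.41 ± 0.38 (SE), adjusted p = 0.475, and of 1.64 ± 1.32 (SE), adjusted p = 0.416. One E50 array gave DNAJB11 a signal of 14.7 and the others 472 and 695. DNAJC3 (p58IPK) is an ER J protein of the unfolded protein response, and its signal was 741, 331 and 578 at E50, 179, 67.5 and 193 at E60 and 15.7, 91.9 and 136 at E70. All later arrays were below the E50 arrays, and 1 of the E70 arrays was under background. It fell over the whole interval (log2 change -3.16 ± 0.85 (SE), adjusted p = 0.0394). Its other, dimmer probe set rose from an E50 mean under background (log2 change 2.25, adjusted p = 0.00498), so that the gene has no settled direction.

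From E60 to E70 each of the 9 ER members had a log2 change below 0, from -1.19 for DNAJC3 to -0.05 for DNAJB11, with a median of -0.33, beside 45.9% of all probe sets below 0 and a median of 0.05. None of these changes passed the test. In 5 of the 9, HSPA5, HSP90B1, PDIA3, PDIA6 and DNAJB9, all 3 E70 arrays were below all 3 E60 arrays, and in none were they above. Of all probe sets 12.4% were below and 15.7% above in this way. The pattern is that of the brightest probe sets: of 9 dimmer probe sets of 6 ER members, 5 had a change above 0, with a median of 0.05 and none called. Of the cytosolic members 18 of 33 were below 0 and of the mitochondrial members 3 of 6. All 9 ER changes were also below 0 under each other scaling, and 8 of 9 were when E60 replicate 1 or any 1 of the E70 arrays was left out. The stage mean was highest at E60 for 7 of the 9 ER members (77.8%), 16 of the 33 cytosolic members (48.5%) and 1 of the 6 mitochondrial members (16.7%), beside 23.7% of all probe sets. As E60 enters both steps, these counts describe the same arrays and were not tested. The GAPDH ratio of 3′ to 5′ signal also differed between the E60 and E70 arrays, and its part in the ER changes was not tested.

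**Figure D2:**
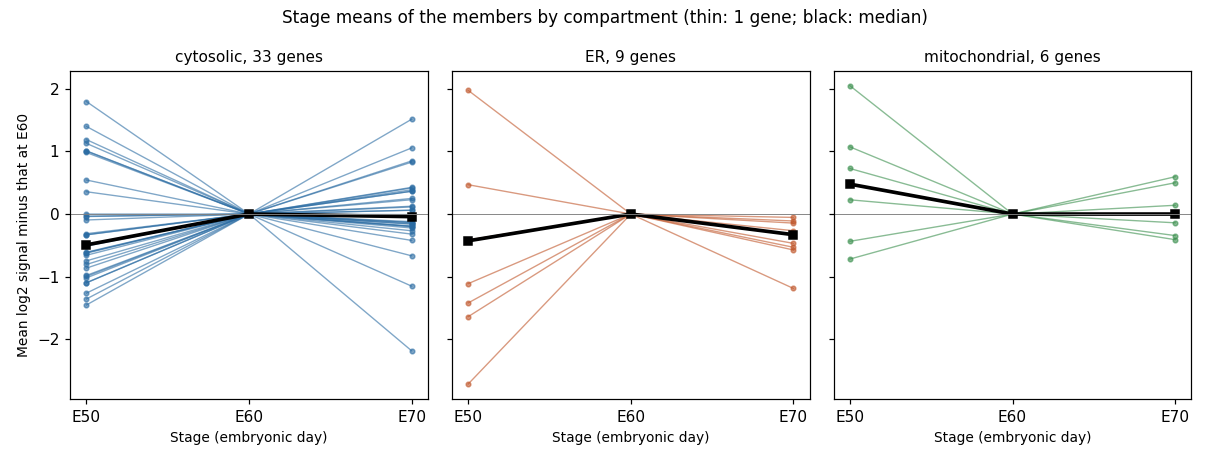
Mean log2 signal of each member at E50, E60 and E70 minus its own mean at E60, with 1 thin line per gene and the median in black, for the 33 cytosolic, 9 ER and 6 mitochondrial members. The ER median lies 0.43 below its E60 value at E50 and 0.33 below it at E70, and the mitochondrial median lies 0.48 above its E60 value at E50.

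The cytosolic HSP90 proteins complete the folding of kinases and steroid receptors. HSP90AB1, the constitutive form, gave 12146, 12666 and 11496 at E50, 14974, 14963 and 15756 at E60 and 24751, 16824 and 18072 at E70. Its stages did not overlap and followed the order of age, with 1 E70 array far above the others, but no step was called (log2 change from E50 to E70 0.70 ± 0.23 (SE), adjusted p = 0.0711). HSP90AA1, the form more readily induced by stress, gave 11429.9, 10371 and 8532 at E50, 16280.1, 13963 and 17468 at E60 and 18694, 15605 and 17243 at E70. All later arrays were above those of E50, and the log2 change to E60 was 0.66 ± 0.22 (SE), adjusted p = 0.0816, and to E70 0.77 ± 0.22 (SE), adjusted p = 0.0511. One of its 4 dimmer probe sets rose from E50 to E70 (log2 change 1.01, adjusted p = 0.0301). The others had changes of -0.21, -0.06 and 0.41 over that interval, none called.

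Of the cytosolic HSP70 group, HSPA8 (HSC70) is the constitutive member and also strips clathrin from vesicles. Its signal was 5898, 6082 and 5819 at E50, 13449, 9591 and 12836 at E60 and 11283, 9529 and 10159.7 at E70. The E50 arrays lay close together below all later ones. HSPA8 rose 1.99-fold to E60 (log2 change 1.00 ± 0.22 (SE), adjusted p = 0.0224) and 1.74-fold to E70 (log2 change 0.80 ± 0.22 (SE), adjusted p = 0.0453). Its 3 dimmer probe sets had changes of 0.33, 0.48 and 1.41 to E60, none called. HSPH1 (HSP105), which recharges HSP70 with ATP and dissolves aggregates, gave 674, 531 and 989.8 at E50, 1873, 1632 and 1942 at E60 and 1522, 1375 and 1181 at E70. Its stages did not overlap, with E60 highest, and it rose 2.56-fold to E60 (log2 change 1.36 ± 0.28 (SE), adjusted p = 0.018). HSPA4, a relative with the same task, had a log2 change of 0.09 ± 0.28 (SE), adjusted p = 0.837. HSPA6, a form made only under strong stress in other species, was above background on no E50 array and on 2 of 3 in each later stage. HSPA14, which works at the ribosome, and HSPBP1, which frees HSP70 of its nucleotide, had log2 changes of 0.03 and -0.36, not called. HSPA2, best known from sperm cells, was higher on all E70 arrays than on any E60 array (log2 change 1.51 ± 0.50 (SE), adjusted p = 0.448).

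The J-domain proteins decide which clients HSP70 takes up. DNAJA1, a general partner of HSPA8, gave 2941, 3234 and 2403 at E50, 5135, 5997 and 5697 at E60 and 4739, 5238 and 4056 at E70. All E60 and E70 arrays were above the E50 arrays. DNAJA1 rose 1.97-fold to E60 (log2 change 0.98 ± 0.23 (SE), adjusted p = 0.0248) and was not called at E70 (log2 change 0.71 ± 0.23 (SE), adjusted p = 0.0666). DNAJB6, which holds back aggregates of glutamine-rich proteins and binds keratin, gave 1114, 1364 and 1538 at E50, 2911, 3367 and 3296 at E60 and 2904, 2827 and 2608 at E70. Its stages did not overlap, E50 lowest and E60 highest, and it rose 2.4-fold to E60 (log2 change 1.26 ± 0.22 (SE), adjusted p = 0.00988) and 2.09-fold to E70 (log2 change 1.06 ± 0.22 (SE), adjusted p = 0.0159). One of its 3 dimmer probe sets fell in the same steps, by 1.57 and 1.60 on the log2 scale (adjusted p = 0.0456 and 0.0428), and the other two were not called. DNAJB1, the partner of HSP70 in the heat shock response, had a log2 change of 0.75 ± 0.62 (SE), adjusted p = 0.43, with 1 E50 array at 78.3 and the others at 348 and 477. DNAJB2 and DNAJA4 were lower at E60 than at E50 on all arrays but were not called (log2 changes -1.19 ± 0.39 (SE), adjusted p = 0.0751, and -1.13 ± 0.40 (SE), adjusted p = 0.0905). The remaining J proteins counted as cytosolic (DNAJA2, DNAJB4, DNAJC2, DNAJC6, DNAJC8, DNAJC9, DNAJC17 and DNAJC24) had log2 changes to E60 from -0.98 for DNAJC6, which uncoats vesicles in nerve cells, to 1.02 for DNAJB4, none called. Over all 22 DNAJ members, whatever their compartment, 2 rose and 1 fell to E60, with a median log2 change of 0.37, and these 3 are 13.6% of them beside 18.5% of all probe sets.

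The CCT complex, a double ring that folds actin and tubulin, was measured through 5 subunits that meet the name rule and through TCP1 (CCT1). CCT6A gave 1279.7, 1306 and 1415 at E50, 2808, 2768 and 2971 at E60 and 1503, 1908 and 2010.2 at E70. Its stages did not overlap, and E60 was highest. CCT6A rose 2.14-fold to E60 (log2 change 1.10 ± 0.21 (SE), adjusted p = 0.0139). Both of its dimmer probe sets also rose (log2 changes 1.06 and 3.27), the latter from an E50 mean under background. From E60 to E70 the log2 change of CCT6A was -0.67 ± 0.21 (SE), adjusted p = 0.409. CCT8 gave 1915, 2444 and 2127 at E50, 4155, 3729 and 3868 at E60 and 4239.9, 3038 and 3326 at E70. All later arrays were above those of E50, and CCT8 rose 1.82-fold (log2 change 0.86 ± 0.23 (SE), adjusted p = 0.0385). CCT4 and CCT7 had log2 changes of 0.62 ± 0.25 (SE), adjusted p = 0.124, and 0.51 ± 0.24 (SE), adjusted p = 0.172, with the E60 arrays above the E50 arrays and no call, and CCT2 had a log2 change of 0.00 ± 0.27 (SE). TCP1, counted among the cytosolic partners, had a log2 change to E60 of 0.62 ± 0.20 (SE), adjusted p = 0.0714, without a call. Its E60 arrays were all above those of E50 and those of E70. The subunits are built into 1 complex, and their log2 changes to E60 ran from 0.00 to 1.10.

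Of the 7 genes named HSPB with a number, most of them cytosolic small heat shock proteins, 5 had a log2 change below 0 to E60 and 1 was called, with a median of -0.54, beside 55.2% of all probe sets below 0 and 18.5% called. With each array centred on its median 3 of the 7 were below 0. HSPB2, a small heat shock protein of muscle, gave 466, 483 and 1063 at E50, 224, 233 and 250.5 at E60 and 270.1, 326 and 249 at E70. All later arrays were below the E50 arrays, of which 1 was far above the others, and HSPB2 fell 2.64-fold to E60 (log2 change -1.40 ± 0.35 (SE), adjusted p = 0.0327). That call was lost after quantile normalization (log2 change -1.20, adjusted p = 0.0789) and with arrays centred on their medians (-0.62, adjusted p = 0.151). HSPB6, made mostly in muscle, gave 265, 319 and 399 at E50, 94.8, 92.8 and 91.5 at E60 and 78.3, 47.6 and 2.3 at E70, with a log2 change of -3.98 ± 1.19 (SE), adjusted p = 0.0552 from E50 to E70. The E70 array at 2.3 was under background. Without it the log2 change was -2.40 (adjusted p = 0.012) to E70 and -1.80 (adjusted p = 0.0172) to E60, where with all arrays the latter had an adjusted p of 0.324. The summed signal of 13 measured skeletal muscle markers lay between 6148 and 7927 on the E50 arrays, between 1879 and 2101 on those of E60 and between 850 and 908 on those of E70. Of the 13, 7 fell to E60, beside 10.6% of all probe sets. The part of muscle cells in the values of HSPB2 and HSPB6 was not tested. HSPB3 and HSPB7, also of muscle, had log2 changes to E60 of -1.01 and 1.10, not called. HSPB1 (HSP27), found in many cell types, was lower at E60 than at E50 and E70 on all arrays, without a call (log2 changes -0.54 ± 0.21 (SE), adjusted p = 0.108, and 0.42 ± 0.21 (SE), adjusted p = 0.743). HSPB8, partner of BAG3 in the removal of damaged filaments, was higher on all E70 arrays than on any E60 array (log2 change 1.06 ± 1.09 (SE), adjusted p = 1).

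**Figure D3:**
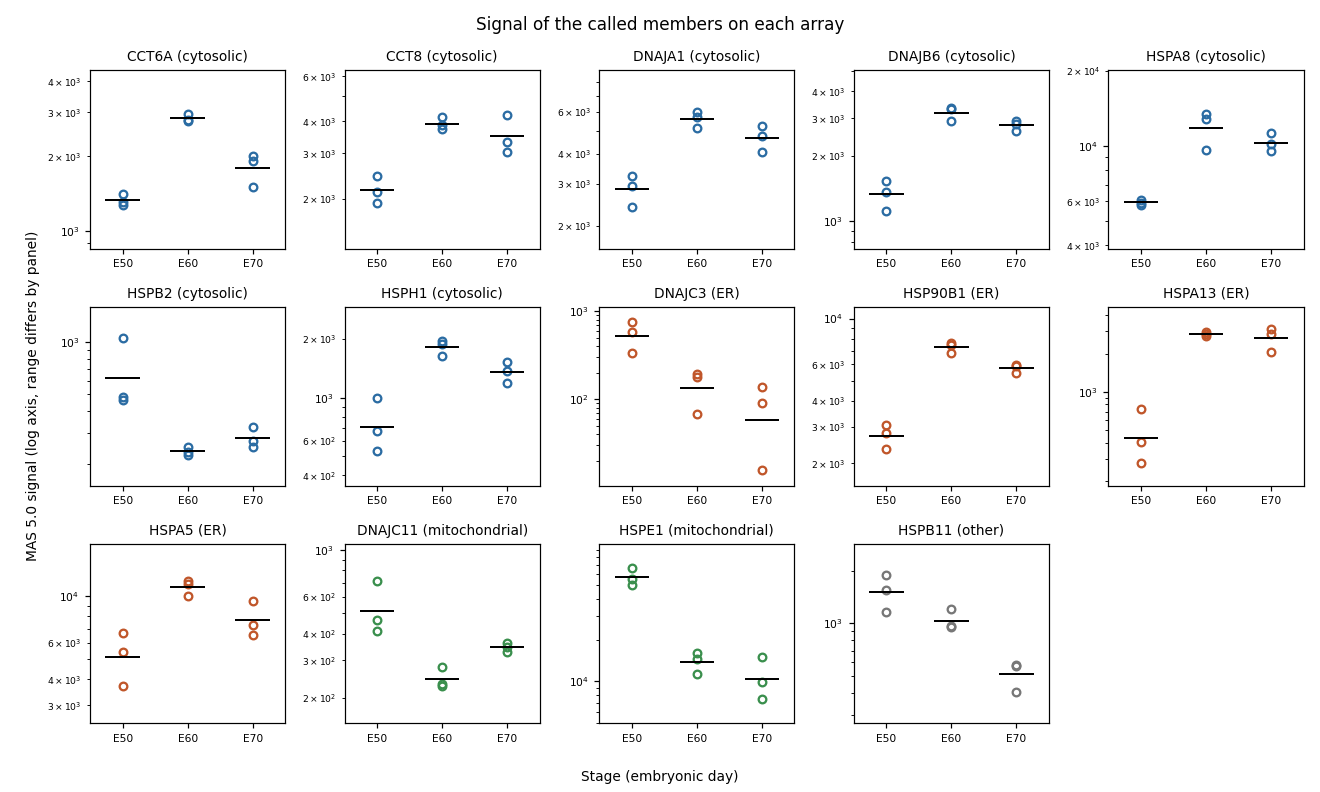
MAS 5.0 signal on each of the 9 arrays (circles, log axis whose range differs by panel) at E50, E60 and E70 for the 14 members called in a comparison with E50, with the geometric mean of each stage as a bar. In 9 panels, HSPA13 and HSP90B1 among them, all E60 arrays lie above the E50 arrays, and in HSPE1 they lie from 11298 to 16069, below the E50 range of 50363 to 66220.

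In the mitochondrion, HSPE1 and HSPD1 form 1 machine: HSPD1 (HSP60) is the folding barrel and HSPE1 (HSP10) its lid. HSPE1 gave 50363, 55824 and 66220.2 at E50, 14453, 11298 and 16069 at E60 and 7486, 9891 and 15133 at E70. All E50 arrays were far above all later ones, and E60 and E70 overlapped. HSPE1 fell 4.14-fold to E60 (log2 change -2.05 ± 0.32 (SE), adjusted p = 0.00707) and 5.5-fold to E70 (log2 change -2.46 ± 0.32 (SE), adjusted p = 0.0031). HSPD1 gave 4565, 4203 and 3546 at E50, 6422, 6846 and 6901 at E60 and 5743, 5449 and 7248 at E70. All later arrays were above the E50 arrays, and the log2 change to E60 was 0.72 ± 0.22 (SE), adjusted p = 0.062. HSPD1 was not called, each gene has 1 probe set, and the difference between their changes was not tested.

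HSPA9 (mortalin), the HSP70 that draws proteins through the inner membrane, gave 3029, 3014 and 1785 at E50, 3331, 3469 and 3488 at E60 and 3799, 3832 and 3705 at E70. The E50 arrays were lowest, 1 of them well below the others, and the log2 change to E60 was 0.44 ± 0.26 (SE), adjusted p = 0.282. The second of its 3 probe sets rose (log2 change 1.27, adjusted p = 0.0157). DNAJC11, a J protein tied to the folds of the inner membrane, gave 466, 414 and 709.6 at E50, 232, 227 and 279 at E60 and 347, 329.9 and 362 at E70. Its stages did not overlap, with E60 lowest, and it fell 2.1-fold to E60 (log2 change -1.07 ± 0.26 (SE), adjusted p = 0.0305), a change of -0.30 without a call when arrays were centred on their medians, and not called after quantile normalization (adjusted p = 0.0814). DNAJA3, the J partner of HSPA9, went the same way without a call (log2 changes -0.73 ± 0.29 (SE), adjusted p = 0.118, then 0.60 ± 0.29 (SE), adjusted p = 0.724). DNAJC19, of the import motor, had a log2 change of -0.23 ± 0.27 (SE), adjusted p = 0.588.

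Of the members with another or unsettled place, HSPB11 was called. Though named a heat shock protein, it is known as IFT25, a part of the transport trains in cilia. It gave 1554, 1156 and 1892 at E50, 969, 953 and 1214 at E60 and 404, 572 and 579.8 at E70. E70 was below both earlier stages on all arrays, and E50 and E60 overlapped. HSPB11 fell 2.94-fold from E50 to E70 (log2 change -1.55 ± 0.28 (SE), adjusted p = 0.0102), and its log2 change from E60 to E70 was -1.02 ± 0.28 (SE), adjusted p = 0.316. DNAJC14, DNAJB14 and HSPA12A had log2 changes to E60 of 0.02, 0.52 and -1.18, none called, and HSPA12A was above background on 1 of the 9 arrays. DNAJC5, a J protein of synaptic vesicles, was above background on no E50 array and on all later ones, without a call in any comparison.

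Several genes had more than 1 probe set, and these did not always give 1 answer. Between E50 and E60, 8 of the 34 dimmer probe sets had a change of the other sign than the brightest probe set of their gene. Of the 34, 8 were called, beside 18.5% of all probe sets. For HSP90B1 and HSPA13 the second probe set also rose to E60 (log2 changes 1.04 and 4.00). That of HSPA13 was dim (mean log2 signal 6.47 over all arrays), and its E50 mean lay under background, so the size of its change is not settled. Opposite calls within a gene were those of DNAJB6 and DNAJC3 given with those genes. For CCT4 the dim second probe set had a log2 change of -4.80, with an adjusted p of 0.0592, and it fell from E50 to E70 (log2 change -5.09, adjusted p = 0.0494), where the brightest had a change of 0.58 and no call. From E60 to E70 the sign differed for 17 of the 34, none of them called.

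**Figure D4:**
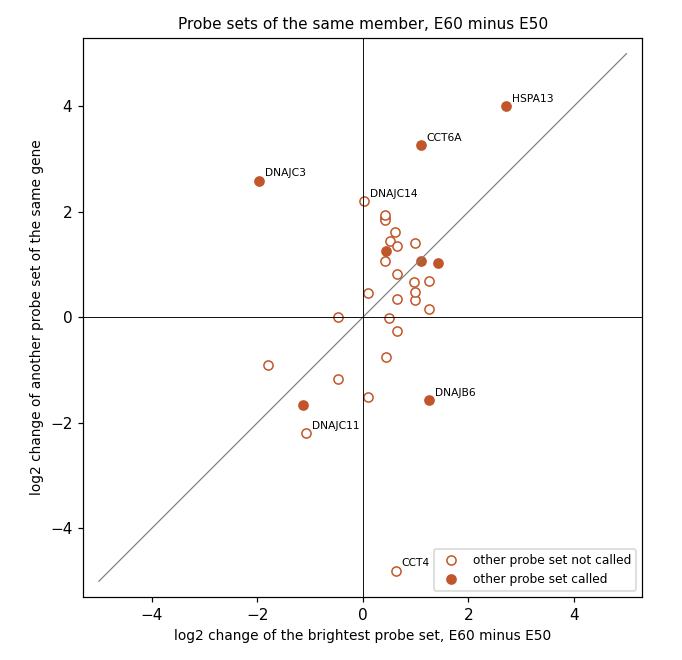
Log2 change between E50 and E60 of the 34 dimmer probe sets of members (vertical) against that of the brightest probe set of the same gene (horizontal), with the diagonal in grey. The 8 filled points are dimmer probe sets called at an adjusted p under 0.05, and DNAJB6 and DNAJC3 lie in the quadrants where the signs differ.

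Partners that work with the members but fall outside the name rule were read from lists. Of 33 cytosolic partners 27 were measured, and to E60 5 rose and 4 fell, or 18.5% and 14.8%, beside 7.85% and 10.6% of all probe sets. PTGES3 (p23), which closes the HSP90 cycle, rose (log2 change 1.64 ± 0.25 (SE), adjusted p = 0.00694), as did SUGT1, another HSP90 partner (0.94 ± 0.21 (SE), adjusted p = 0.0217), and the heat shock factor HSF2 (1.26 ± 0.28 (SE), adjusted p = 0.0233). HSF1, the main switch of the heat shock response, was under background on all E50 arrays and above it later. Its signals at E60 (251, 302 and 345) were on average 1.53-fold the geometric mean of the E50 backgrounds, but below the highest of these (379). HSF1 was called as a rise to E60 (adjusted p = 0.00604), computed with E50 values under background. Another of its probe sets had a change of -1.29. Prefoldin passes actin and tubulin to CCT, and its called subunits split: PFDN5 fell (log2 change -2.53 ± 0.21 (SE), adjusted p = 0.00102) and PFDN6 fell (-0.94 ± 0.27 (SE), adjusted p = 0.0494), while VBP1 rose (0.93 ± 0.21 (SE), adjusted p = 0.0218). PFDN1 and PFDN4 had log2 changes of -0.31 and 0.04 (adjusted p = 0.387 and 0.927) and were not called. TXN and FKBP1A, a redox protein and a prolyl isomerase, also fell (-1.33 ± 0.27 (SE), adjusted p = 0.016, and -1.34 ± 0.25 (SE), adjusted p = 0.0127). From E50 to E70 3 cytosolic partners rose and 4 fell, or 11.1% and 14.8%, beside 8.16% and 10.6% of all probe sets.

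Of 53 ER partners 28 were measured. To E60 1 rose and 1 fell, 3.57% each, and from E50 to E70 1 rose and 3 fell, 3.57% and 10.7%, beside the same shares of all probe sets as above. To E60 ERO1A, the oxidase that feeds the PDIA enzymes, rose (adjusted p = 0.00735) from below background on all E50 arrays to 123, 173 and 186 at E60, under the geometric mean of the E50 backgrounds, so no fold is given. TXNDC12, a small oxidoreductase, fell (log2 change -0.93 ± 0.25 (SE), adjusted p = 0.042). Calnexin and calreticulin (CANX and CALR), the lectins of the ER, had log2 changes of 0.47 ± 0.21 (SE), adjusted p = 0.164, and 0.45 ± 0.28 (SE), adjusted p = 0.293. XBP1, ATF4 and DDIT3, factors of the unfolded protein response, had log2 changes of -0.08, -0.28 and -1.12, none called, and DDIT3 fell from E50 to E70 (log2 change -1.50 ± 0.36 (SE), adjusted p = 0.0269). FKBP7 and FKBP10, prolyl isomerases of the ER, fell over the same interval (-1.35 ± 0.29 (SE), adjusted p = 0.0195, and -0.82 ± 0.24 (SE), adjusted p = 0.0499), and ERO1A was the 1 partner that rose. From E60 to E70 none of the 28 was called, 19 had a change below 0, and in 8 all E70 arrays were below all E60 arrays, against 2 above, beside 45.9% of all probe sets below 0 and 12.4% and 15.7% without overlap. The median of the 28 was -0.13, and without E70 replicate 2 it was -0.02, with 16 of the 28 below 0. Of 16 mitochondrial partners 8 were measured, and YME1L1, a protease of the inner membrane, rose to E60 (log2 change 1.98 ± 0.28 (SE), adjusted p = 0.00514) and was the 1 called at E70, also as a rise, so that 12.5% rose and none fell in either comparison.

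Markers of the cells that the germs can hold were read beside these values. Of 19 tooth germ markers 6 were measured, of which MSX1 and DLX5 were above background on all arrays. MSX1 fell to E60 (log2 change -1.03, adjusted p = 0.0295), while its other probe set had a change of 1.42. DLX5 was higher on all E70 arrays than on any earlier one and rose from E50 to E70 (log2 change 0.88, adjusted p = 0.0341). AMELX and AMBN, matrix genes of enamel, were above background on all 3 E70 arrays but not on all earlier ones, with changes from E60 to E70 of 3.28 and 2.5 (adjusted p = 0.322 and 0.511), and ENAM and DSPP were above it on all arrays of no stage. The tooth germ sum ran from 6684 to 7818 on the E50 arrays, from 4892 to 5265 on those of E60 and from 7321 to 10189 on those of E70. Summed macrophage signal (6 measured) ran from 3933 to 5330 on the E50 arrays, from 1375 to 1573 on those of E60 and from 625 to 859 on those of E70. Summed bone signal (6 measured) ran from 58117 to 62209 on the E60 arrays and from 10302 to 11122 on those of E70. Of these 6 markers, 2 fell from E60 to E70, beside 0.338% of all probe sets. The endothelium sum (8 measured) ran from 3315 to 3733 on the E60 arrays and from 1919 to 2251 on those of E70, and the erythroid sum (4 measured) 2597 to 3059 and 2599 to 4124. The summed bone, macrophage, muscle and endothelium signals were thus lower, and the tooth germ signal higher, on all E70 arrays than on any E60 array, and the part of these cells in the ER values was not tested.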

How the data were processed

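RNA from pooled molar germs was measured on Affymetrix Porcine Genome Arrays, and the authors computed 1 MAS 5.0 signal per probe set. The deposited table holds these intensity values on a linear scale, and the labels name MAS5 without a version. For log2, intensities below 1 were raised to 1. Of 24123 probe sets, 124 array controls were set aside. Background on an array was the 95th percentile of 23 control probe sets for sequence foreign to the pig.

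Stage was the only factor. All 9 arrays entered 1 fit with limma 3.58.1 in R 4.3.3 (lmFit, then eBayes with 1 prior variance for all probe sets and 1.47 prior degrees of freedom), which was tested on simulated data. Adjustment for multiple tests was that of Benjamini and Hochberg over 23999 probe sets. Tables and figures were made with pandas 2.3.3, NumPy 2.4.6 and Matplotlib 3.10.9 in Python 3.11.15. Symbols came from the platform annotation. For 52 of the 53 members the gene number was also in the RefSeq table of the pig. Arrays with the same replicate number did not deviate together (r -0.0211 to 0.0261 over 9 pairs), so no pairing was used.

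Members and lists (partners by compartment, and markers of tooth germ, skeletal muscle, erythroid cells, macrophages, endothelium and bone) were chosen with earlier results of these data known. Values per array are given for every called member and for the 3 brightest members of each compartment, and the other members are given by their changes or counts. The examples among the partners, and HSPB6, were chosen after their values were seen. Alternatives covered the floor, a pseudocount, the scaling, a filter on dim probe sets, array weights, the prior, the arrays in the fit, a replicate block, the probe set of a gene and each array left out in turn. No sequence is given, as none of the tables used here holds one.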

Additional observations from a re-analysis of the deposited data

How the results depend on the processing

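With the brightest probe set of each gene, no called member reversed its direction in any alternative. Calls kept in every such alternative were 3 of 12 between E50 and E60 (DNAJB6, HSP90B1 and HSPA13). Between E50 and E70 they were 2 of 7 (HSPA13 and HSPE1). With the second brightest probe set, DNAJB6 was not called to E60 (log2 change 0.69, adjusted p = 0.661). DNAJC3 was then called as a rise from E50 to E70 (log2 change 2.25, adjusted p = 0.00498). HSPE1 between E50 and E60 was lost with array weights (adjusted p = 0.0624) and in no other alternative. The causes of these shifts were not tested. The number of arrays limits all values, and dim members have the widest errors. The background of the E50 arrays limits each comparison with E50. Their spread enters the error of every comparison, that of E60 and E70 included, as all stages share 1 estimate of spread per probe set. Of all probe sets 0.421% were called between E60 and E70, and 1.75% from the arrays of these stages alone.

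The test across stages called 9 members. It called 24 with arrays centred on their medians, 14 after the filter on dim probe sets and 21 with a trended robust prior. Between E50 and E60 (12 called, 9 rose, 3 fell) there were 25 calls with median centring (24 rose, 1 fell, beside 23.3% of all probe sets), 19 with the trended robust prior (15 rose, 4 fell), 6 from the arrays of these stages alone (4 rose, 2 fell) and 4 with array weights (4 rose, 0 fell). After quantile normalization 1 fell. Between E60 and E70 (0 called) array weights gave 2 calls (1 rose, HSPA2, and 1 fell, HSPB11), the arrays of these stages alone 1 (1 rose, HSPB8) and the trended robust prior 1 (1 fell, CCT6A). Between E50 and E70 (7 called, 4 rose, 3 fell) there were 22 with median centring (21 rose, 1 fell), 15 after the filter (10 rose, 5 fell), 19 with the trended robust prior (13 rose, 6 fell), 2 from these stages alone (1 rose, 1 fell), 3 with array weights (2 rose, 1 fell) and 11 with the second brightest probe sets (7 rose, 4 fell).

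With the replicate number as a replicate block, 3 members were called across stages, 6 between E50 and E60 (5 rose, 1 fell) and 5 between E50 and E70. The arrays share only a number, and a call lost under the block is not a smaller change.

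With 1 array left out, 4 to 13 members were called across stages, 4 to 14 between E50 and E60 (3 to 10 rose, 1 to 5 fell), 0 between E60 and E70 and 4 to 10 between E50 and E70 (1 to 7 rose, 2 to 4 fell). Between E50 and E60 the calls were 4, 5 and 4 without E60 replicate 1, 2 and 3. Leaving out any 1 of the E60 arrays ended the calls of CCT6A (adjusted p 0.0534 to 0.058), DNAJA1 (0.0736 to 0.0936) and HSPH1 (0.0542 to 0.0701), and leaving out any 1 of the 6 later arrays those of HSPA5 (0.0502 to 0.117), DNAJC11 (0.0527 to 0.105) and HSPB2 (0.0528 to 0.104). HSPA8 was lost without E60 replicate 1 or 3 (0.0916 and 0.0855), and CCT8 without E50 replicate 1, E70 replicate 2 or 3 or any E60 array (0.0555 to 0.13). Between E50 and E70, DNAJB6 was lost without any 1 of the E70 arrays (0.0513 to 0.0562), HSP90B1 without E70 replicate 3 (0.0521), HSPA8 without any array but E50 replicate 3 (0.0535 to 0.133) and DNAJC3 without any but E50 replicate 2 or E70 replicate 3 (0.052 to 0.0779).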
